A study of Mus musculus with 22 samples.

Results

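The balance of 2 histone marks, H3K4me3 and H3K27me3, was measured at transcription start sites (TSSs) of mouse embryonic stem cells (ESC). It rests on 4 of the 22 CUT&RUN libraries of the series, 2 for H3K4me3 and 2 for H3K27me3, chosen by antibody and cell type, with 1 IgG library of the same cells as background. CUT&RUN cuts and releases DNA near an antibody's target in permeabilised cells. The ESC were a C57BL/6 line grown without serum in N2B27 medium with leukemia inhibitory factor (LIF) at 100 U/mL, the GSK3 inhibitor CHIR99021 at 3 µM and the MEK inhibitor PD0325901 at 1 µM, a regime that holds cells in the naive state. The neural progenitor cells (NPC) used for comparison, with 4 libraries of the same antibodies, were made from such ESC by 72 h of bFGF (10 ng/mL) followed by 48 h of SAG, a Hedgehog agonist (500 nM). All groups therefore derive from 1 mouse strain, and the labels give no genetic change. The series text gives 2 biological replicates per antibody. The p-values rest on 2 libraries per group, with the spread estimated partly from all windows together. They do not measure the spread between replicates at a single TSS alone. IgG had 1 library, so its spread was taken from the other groups.

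Each value is the number of reads in a window of 5000 bp around 1 annotated TSS per gene, given here as CPM, the count per 1000000 counts of that library over all 24467 windows. The totals were 6321141 and 3621370 counts for H3K4me3, 965603 and 647615 for H3K27me3 and 298458 for IgG. A count of 3 equals 0.475 and 0.828 CPM in the H3K4me3 libraries, 3.11 and 4.63 CPM in the H3K27me3 libraries and 10.1 CPM in the IgG library, so low H3K27me3 and all IgG values are the least precise. The libraries of one mark agreed across windows (Pearson's r of log2(CPM + 1) 0.991 for H3K4me3 and 0.929 for H3K27me3). Their difference exceeded counting noise (a chi-square of 1.15 and 1.23 for each degree of freedom), and they were kept as separate replicates. The label was checked with markers: at 10 of 10 ESC markers both ESC libraries had more H3K4me3 than both NPC libraries, with summed levels of 1618 and 1709 CPM against 200.0 and 195.1 CPM. At 8 of 8 neural progenitor markers both ESC libraries were lower. Markers of 4 other cell types (7 of neurons, 8 of fibroblasts, 6 of extraembryonic endoderm and 6 of trophoblast) were not at 0: the lowest held 0.791 CPM of H3K4me3, and each list summed to between 126.7 and 225.8 CPM in the ESC libraries, against 146.9 to 290.9 CPM in NPC. Of these lists only the trophoblast one was higher in ESC, with 225.8 and 196.1 CPM against 155.9 and 167.6 CPM. The 4 primed epiblast markers summed to 157.4 and 125.9 CPM in ESC and 181.1 and 187.4 CPM in NPC. The part of other cell types in the results was not tested.

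H3K4me3 is placed by COMPASS and Trithorax methyltransferases and marks promoters that are active or ready for use. H3K27me3 is placed by the Polycomb complex PRC2 and marks repressed promoters. In stem cells many promoters of developmental regulators are known to carry both marks, a state called bivalent, and CpG-rich DNA is a known meeting point of both enzyme systems. A window sums over many cells, both alleles and many nucleosomes, so reads of both marks in 1 window do not show that they sit on the same nucleosome, and more mark per cell cannot be told apart from more cells with the mark.

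Promoter sequences of 6 TSSs are shown because they stand for the patterns described here: H3K4me3 with little H3K27me3 (Nanog and Klf4), both marks above IgG (P2ry1), strong H3K27me3 with some H3K4me3 (Sox1 and Hoxa13) and H3K27me3 with almost no H3K4me3 (Tdrd1). They run from 250 bases before to 50 after the start, 5′ to 3′ on the gene's strand, from RefSeq on build GRCm38.p6, with each CG dinucleotide (CpG) in capitals. Their positions are chr6:122707239-122707538 for Nanog (plus strand), chr4:55532426-55532725 for Klf4 (minus), chr3:61002535-61002834 for P2ry1 (plus), chr8:12395269-12395568 for Sox1 (plus), chr6:52260831-52261130 for Hoxa13 (minus) and chr19:56830462-56830761 for Tdrd1 (plus).
Nanog: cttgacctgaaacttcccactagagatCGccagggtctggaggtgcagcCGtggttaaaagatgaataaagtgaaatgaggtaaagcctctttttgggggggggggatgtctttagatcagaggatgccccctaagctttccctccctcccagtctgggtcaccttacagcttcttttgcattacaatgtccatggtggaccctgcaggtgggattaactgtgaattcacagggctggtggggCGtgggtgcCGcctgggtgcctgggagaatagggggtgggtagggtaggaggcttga
Klf4: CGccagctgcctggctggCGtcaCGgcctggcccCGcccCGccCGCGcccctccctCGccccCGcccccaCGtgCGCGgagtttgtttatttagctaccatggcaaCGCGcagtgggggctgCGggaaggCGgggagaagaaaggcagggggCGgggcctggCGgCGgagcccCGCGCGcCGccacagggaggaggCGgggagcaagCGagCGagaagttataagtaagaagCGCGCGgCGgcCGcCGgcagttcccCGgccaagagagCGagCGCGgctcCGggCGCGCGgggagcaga
P2ry1: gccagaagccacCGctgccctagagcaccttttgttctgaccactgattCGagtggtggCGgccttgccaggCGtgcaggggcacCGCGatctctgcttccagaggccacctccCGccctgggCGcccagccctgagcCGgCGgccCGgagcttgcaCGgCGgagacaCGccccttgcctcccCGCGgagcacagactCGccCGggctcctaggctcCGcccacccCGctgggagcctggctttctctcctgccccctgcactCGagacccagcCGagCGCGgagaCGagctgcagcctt
Sox1: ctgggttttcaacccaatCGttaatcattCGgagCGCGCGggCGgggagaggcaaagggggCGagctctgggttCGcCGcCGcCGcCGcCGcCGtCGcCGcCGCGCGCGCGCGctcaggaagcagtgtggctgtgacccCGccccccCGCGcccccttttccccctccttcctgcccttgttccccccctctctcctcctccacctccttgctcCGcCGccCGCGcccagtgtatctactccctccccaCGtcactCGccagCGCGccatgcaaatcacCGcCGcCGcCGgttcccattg
Hoxa13: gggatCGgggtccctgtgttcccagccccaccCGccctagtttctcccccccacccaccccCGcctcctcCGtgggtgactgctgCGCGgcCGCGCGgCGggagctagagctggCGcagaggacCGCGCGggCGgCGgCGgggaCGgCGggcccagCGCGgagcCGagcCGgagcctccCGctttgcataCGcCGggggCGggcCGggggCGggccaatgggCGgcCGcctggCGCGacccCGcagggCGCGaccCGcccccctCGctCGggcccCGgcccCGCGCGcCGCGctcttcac
Tdrd1: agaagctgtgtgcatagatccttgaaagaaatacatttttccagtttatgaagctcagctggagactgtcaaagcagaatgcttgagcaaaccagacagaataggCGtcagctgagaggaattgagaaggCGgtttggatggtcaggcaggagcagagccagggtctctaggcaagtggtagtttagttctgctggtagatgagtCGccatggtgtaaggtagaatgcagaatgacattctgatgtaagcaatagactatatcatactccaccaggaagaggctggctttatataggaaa
The letters CG, which read the same on both strands and cannot overlap each other, occurred 4 times in the Nanog promoter, 40 times at Klf4, 25 at P2ry1, 37 at Sox1, 45 at Hoxa13 and 3 at Tdrd1. Over the 17694 promoters matched to a window the median was 13 and 95.2% held at least 1. Both CpG-rich and CpG-poor promoters thus stood on the H3K4me3 side in these examples. A comparison of CpG content between groups of TSSs was void, because only 72.3% of windows, and under 80% of each group, had a matched promoter.

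Across all windows, H3K27me3 was highest at intermediate H3K4me3 and low at both ends. In the 2931 windows with under 1 CPM of H3K4me3 the median H3K27me3 was 13.4 CPM. It was 43.6 CPM in the 1815 windows with 2 to 4 CPM of H3K4me3 and 57.4 CPM in the 2712 windows with 16 to 32 CPM. With each further doubling of H3K4me3 it was 22.2 and then 11.1 CPM, and in the 1380 windows with the most H3K4me3 it was 8.77 CPM. The background moved with the lower end: the median of IgG went from 20.1 to 43.6 CPM between the first and the 2 to 4 CPM group and lay between 40.2 and 46.9 CPM beyond it. At the upper end IgG stood at 43.6 CPM, well above H3K27me3. Windows that overlap no other gave medians of 13.7, 58.3 and 9.03 CPM for the lowest, the 16 to 32 CPM and the highest group. A single correlation misses this shape: Pearson's r between the marks was -0.114 to -0.06 over the 24467 windows for the 4 pairs of libraries, with Spearman's rho between -0.225 and -0.194, and windows share libraries and depth.

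**Figure D1:**
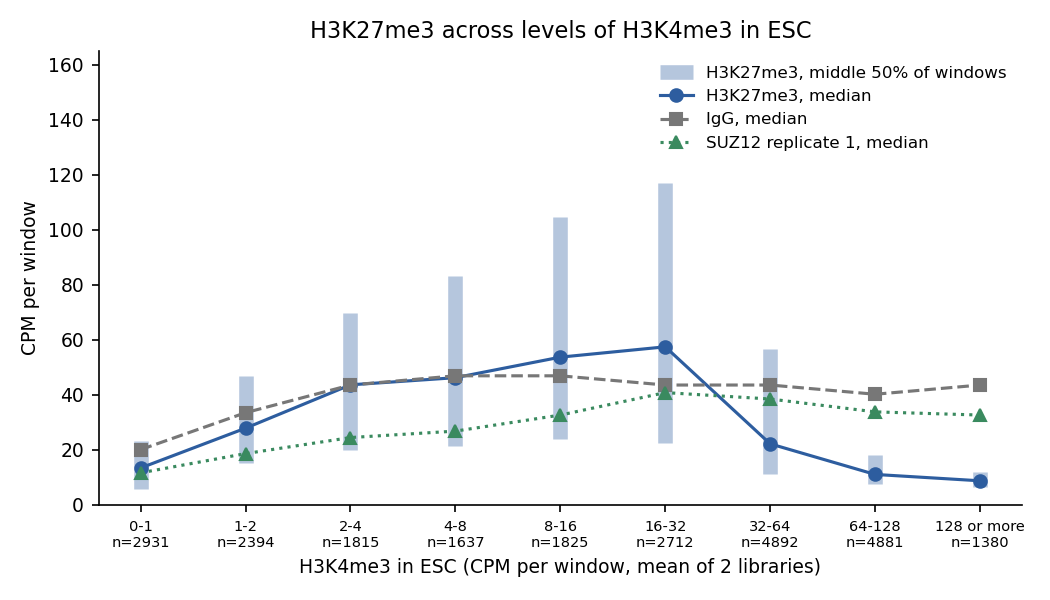
Median H3K27me3 (circles, with the middle 50% of windows as bars), IgG (squares) and SUZ12 (triangles) in ESC, in CPM per window, for windows grouped by mean H3K4me3. H3K27me3 is highest, at 57.4 CPM, in the 16 to 32 CPM group and is 8.77 CPM in the highest group, while IgG stays between 40.2 and 46.9 CPM from 2 CPM upward.

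Read from the other side, strong H3K27me3 went with an intermediate level of H3K4me3. In the 997 windows with 160 to 320 CPM of H3K27me3 the median H3K4me3 was 23.2 CPM, and 80% of the windows lay between 7.24 and 51.7 CPM. Windows of olfactory, vomeronasal and taste receptor genes gave the scale of the H3K4me3 background. These genes were assumed to be silent in these cells, and their expression was not measured here. Their windows had a median of 0.790 CPM and a 95th percentile of 2.27 CPM. Of 1035 windows with at least 160 CPM of H3K27me3, 99.6% held more H3K4me3 than that percentile. Over all windows the median H3K4me3 was 25.4 CPM, so most windows passed this limit as well. By contrast only 2.61% of the 997 windows were called above IgG for H3K4me3, against 36.0% of all TSSs tested. IgG itself had a median of 50.3 CPM in the 997 windows. Whether such a window is said to carry both marks therefore turns on the background chosen.

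**Figure D2:**
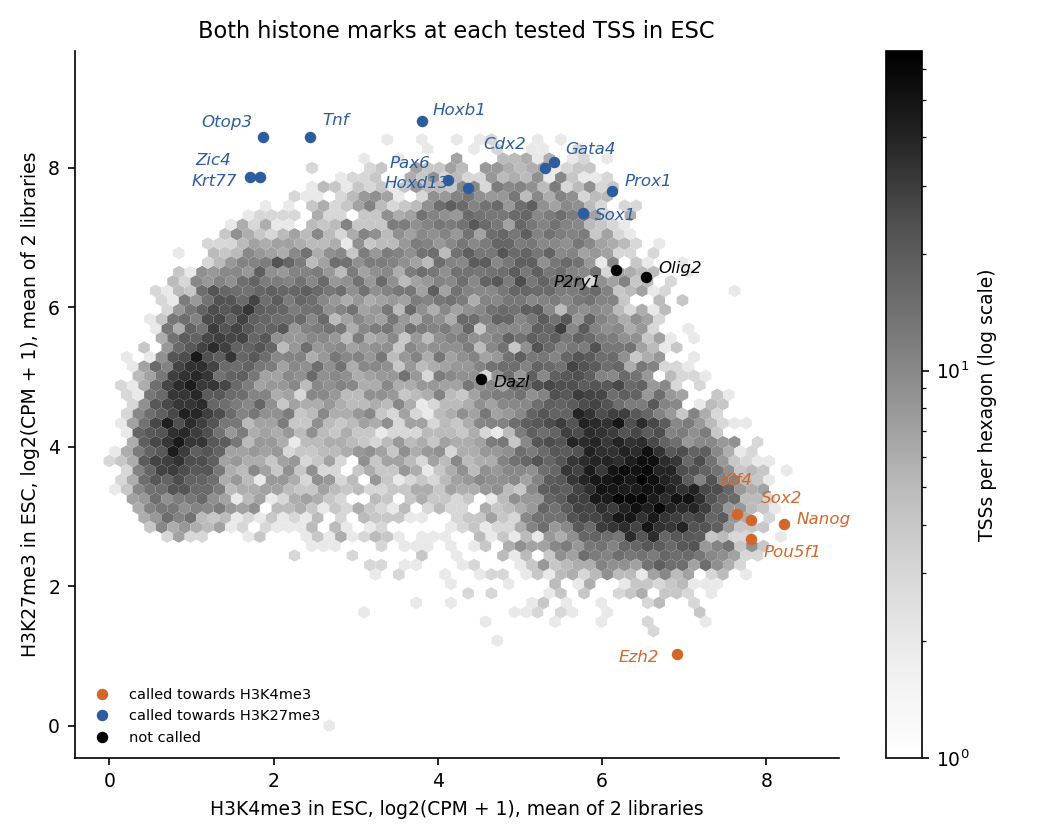
Mean H3K4me3 against mean H3K27me3 in ESC, both as log2(CPM + 1), for the 23396 tested TSSs (grey hexagons, darker for more TSSs, log scale). Named TSSs are coloured by the test of the balance on library totals. The pluripotency genes lie at lower right, Hoxb1, Gata4 and Cdx2 at the top, and Otop3, Tnf, Zic4 and Krt77 at upper left.

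The balance was tested per TSS as the log2 ratio of H3K4me3 to H3K27me3 (edgeR quasi-likelihood, library totals, called at a ratio of at least 2-fold either way with a Benjamini-Hochberg adjusted p below 0.05). The 1071 windows with too few reads in these libraries were left out. Of 23396 TSSs tested, 8808 (37.6%) were called towards H3K4me3 and 11233 (48.0%) towards H3K27me3, and 3355 (14.3%) were not called. The median log2 ratio was -0.73, with the middle 50% of TSSs from -3.51 to 2.42. The zero of this ratio is a convention, since each library is scaled to its own total and no external standard was used here. TMM scaling moved the median by 0.73 and the split to 10069 and 9805. Scaling each library to the receptor windows moved it by 4.36, and then 17039 (72.8%) were called towards H3K4me3 and 970 (4.15%) towards H3K27me3. In windows that overlap no other, which number 19097 before filtering, the count towards H3K4me3 was 5585. Medians of lists are therefore also given relative to the median of all TSSs under the same scaling. TMM and receptor-window scaling add nearly the same amount to most ratios. By construction they therefore move that difference by little and are no test of it. Other settings moved it more, for 23 of 24 lists at a minimum count of 30. In windows that overlap no other it moved for 19 lists and changed sign for 3 more.

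A low ratio did not by itself mean much H3K27me3. Of 1280 receptor TSSs tested, 1272 were called towards H3K27me3 on library totals and 178 with receptor-window scaling. Yet these genes had a median of 14.5 and 17.0 CPM of H3K27me3 in the 2 libraries, below the 23.5 CPM of IgG, and 0.633 and 0.828 CPM of H3K4me3. Their medians were thus low for both marks, but single members were not: 133 of 1395 receptor TSSs tested over IgG had H3K27me3 called, and the levels reached 248.8 CPM of H3K27me3 and 76.1 CPM of H3K4me3. These windows are part of the background that the receptor-window scaling uses. The levels over IgG are needed beside the ratio to separate such TSSs from those rich in H3K27me3.

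Naive pluripotency genes held the highest H3K4me3 with little H3K27me3. Of 27 such TSSs, 23 were called towards H3K4me3 and 1 towards H3K27me3, and the median ratio was 4.49 above the median of all TSSs. At Nanog, a core pluripotency transcription factor (window chr6:122704989-122709988), H3K4me3 was 292.7 and 299.3 CPM and H3K27me3 5.18 and 7.72 CPM, with 60.3 CPM of IgG. The marks did not overlap between libraries, and the log2 ratio was 5.57 ± 0.27 (SE, n = 2 per mark, adjusted p = 5.46e-95). Pou5f1, which encodes OCT4, had 216.6 and 233.6 CPM of H3K4me3 against 6.21 and 4.63 CPM of H3K27me3. Sox2, which works with OCT4, had 216.6 and 230.0 against 7.25 and 6.18 CPM. Klf4, a factor of the naive network, had 190.8 and 207.4 against 5.18 and 9.27 CPM. The log2 ratios of these 3 genes were 5.31 ± 0.28, 5.02 ± 0.27 and 4.85 ± 0.27, and H3K27me3 lay under IgG at each.

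The exception among naive genes was Esrrb, an orphan nuclear receptor of the naive network. Its counted window (chr12:86419144-86424143, transcript NM_011934.4) held 26.1 and 22.9 CPM of H3K4me3 and 238.2 and 219.3 CPM of H3K27me3. H3K27me3 was the higher mark in both libraries, with a log2 ratio of -3.21 ± 0.13 (adjusted p = 1.31e-125), which turned to 1.16 with receptor-window scaling. Other starts of Esrrb were not analysed here.

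Genes of general cell function showed the same high ratio. All 52 ribosomal protein TSSs were called towards H3K4me3 under library totals, TMM and receptor-window scaling, with a median ratio 5.17 above that of all TSSs; 27 of their windows overlapped another. Rpl4, a protein of the large ribosomal subunit, had 235.4 and 255.4 CPM of H3K4me3 and 4.14 and 7.72 CPM of H3K27me3 in such a window. Of 25 housekeeping TSSs 23 were called towards H3K4me3. Among them Ppia, a peptidyl-prolyl isomerase, reached 250.6 and 270.1 CPM. Actb, which encodes beta-actin, had 108.5 and 101.1 CPM of H3K4me3, 4.14 and 12.4 CPM of H3K27me3 and a ratio of 3.82 ± 0.28. Of the 8573 TSSs with H3K4me3 called above IgG, 3374 (39.4%) had H3K27me3 called below IgG, against 21.8% of all TSSs tested. H3K27me3 thus lay below the non-specific antibody at many TSSs that carry H3K4me3, with 1 IgG library as control for both marks.

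The genes of the chromatin machinery stood mostly on the H3K4me3 side. All 17 tested COMPASS and Trithorax TSSs and all 11 demethylase TSSs were called towards H3K4me3, also with TMM and receptor-window scaling. Of 11 PRC2 subunits, 10 were called towards H3K4me3. Ezh2, the PRC2 methyltransferase, had 113.6 and 126.2 CPM of H3K4me3, with 2 reads of H3K27me3 in 1 library and 0 in the other. Its ratio from pooled counts was 95.3-fold, with an exact 95% counting interval of 26.3 to 788. Mtf2, an accessory subunit, had a ratio of 5.44 ± 0.32, and Wdr5, a shared COMPASS subunit, 4.19 ± 0.26. Kdm5a, which removes H3K4me3, had 141.4 and 150.8 CPM of that mark in an overlapping window.

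A minority of these regulators carried H3K27me3. Phf19, a relative of MTF2 in PRC2, had 38.4 and 38.7 CPM of H3K4me3 and 133.6 and 126.6 CPM of H3K27me3, with 67.0 CPM of IgG. Its log2 ratio was -1.76 ± 0.15 (adjusted p = 8.79e-33) and turned to 2.61 with receptor-window scaling. Of 22 PRC1 subunits 13 were called towards H3K4me3 and 7 towards H3K27me3 on library totals, against 21 towards H3K4me3 with receptor-window scaling. The shares of all TSSs were 37.6% and 48.0% on library totals, and 72.8% towards H3K4me3 with receptor-window scaling. Pcgf2 had a ratio of 4.77 ± 0.25 in an overlapping window and its relative Pcgf5 one of -4.76 ± 0.29. Pcgf5 held 66.3 and 60.2 CPM of H3K27me3 against 46.9 CPM of IgG, so its low ratio came with 2.06 and 2.76 CPM of H3K4me3.

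The 5 largest ratios towards H3K4me3 among TSSs of at least median abundance went with the near absence of H3K27me3 reads. Firre, a long noncoding RNA of the X chromosome, had 71.0 and 75.9 CPM of H3K4me3 and no H3K27me3 read in either library, which makes it at least 19-fold higher in H3K4me3 when 3 counts per library are taken as the floor. Hist1h1b, a linker histone in an overlapping window, had 103.1 and 95.5 CPM of H3K4me3 and 1 read of H3K27me3 in all, a 162.0-fold ratio with a counting interval of 29.0 to 6400.0. Pigl and Ncor1, an enzyme of GPI anchor synthesis and a nuclear corepressor, share overlapping windows and hold at most 4.63 CPM of H3K27me3. Ezh2 was the other member of this group of 5.

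**Figure D3:**
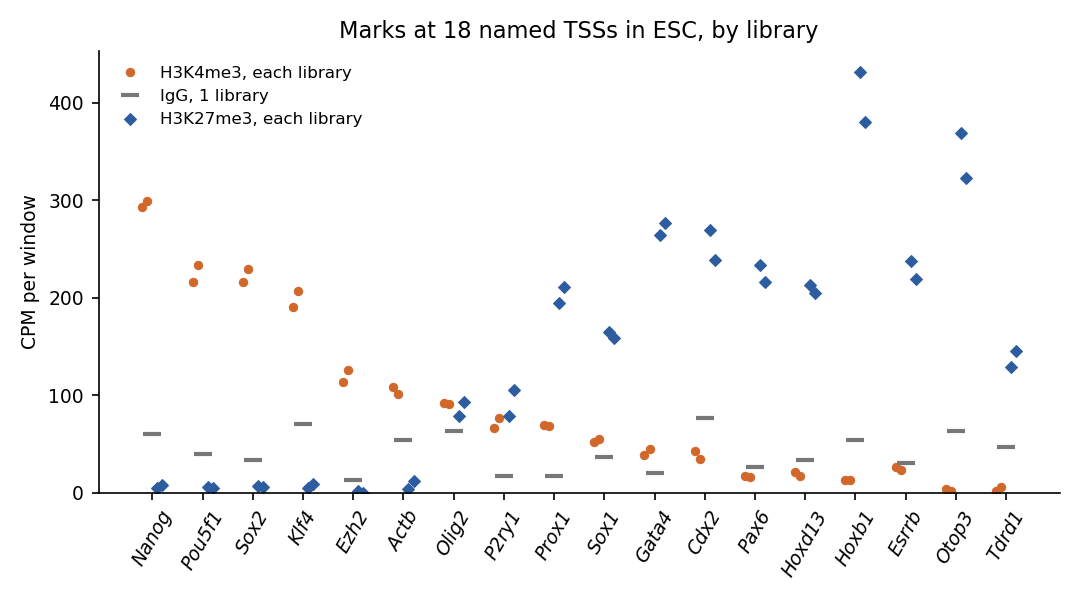
H3K4me3 (circles), H3K27me3 (diamonds) and IgG (dashes) at 18 named TSSs in ESC, in CPM per window, 1 symbol per library. Replicates lie close to each other; the marks change places between Nanog (292.7 and 299.3 CPM of H3K4me3) and Hoxb1 (431.9 and 379.9 CPM of H3K27me3), with Olig2 and P2ry1 near equality.

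Genes of the 4 Hox clusters, known for patterning the body axis, had more H3K27me3 than any other list. Its median was 239.6 CPM in HoxA (11 TSSs), 377.7 in HoxB (10), 253.8 in HoxC (9) and 209.4 in HoxD (9), with 34.96, 35.87, 27.24 and 23.56 CPM of H3K4me3. On library totals 9, 10, 9 and 9 were called towards H3K27me3, against 48.0% of all TSSs. With receptor-window scaling 10, 4, 5 and 4 were called towards H3K4me3, against 72.8% of all TSSs. Relative to the median of all TSSs the median ratios of the 4 clusters were -2.08, -2.80, -2.38 and -2.65, and they lay below it under each alternative run. At Hoxb1, an anterior Hox gene (chr11:96363258-96368257), H3K27me3 was 431.9 and 379.9 CPM and H3K4me3 12.7 and 13.3 CPM, a log2 ratio of -4.99 ± 0.13. Hoxb3, in an overlapping window, leaned furthest within its cluster, with 458.8 and 420.0 against 7.12 and 7.18 CPM. Hoxd13, a posterior gene, had 213.3 and 205.4 CPM of H3K27me3 and 21.5 and 17.7 CPM of H3K4me3 (ratio -3.38 ± 0.14). Hoxa13 had 250.6 and 228.5 against 37.3 and 35.4 CPM, in a window that overlaps a neighbour's. With receptor-window scaling the ratios of Hoxd13 and Hoxa13 were 0.97 and 1.65. HoxB lies on chromosome 11, where the median of IgG was 60.3 CPM against 40.2 CPM on the other autosomes; its part in the HoxB levels was not tested. Neighbouring Hox windows share reads, since 10, 6, 3 and 5 of the windows of the 4 clusters overlapped another.

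Regulators of germ layers and lineages had the same combination of high H3K27me3 and intermediate H3K4me3. Of 37 mesoderm, blood and muscle TSSs 33 were called towards H3K27me3 on library totals and 28 towards H3K4me3 with receptor-window scaling. For endoderm the counts were 18 of 23 and 16, for surface ectoderm and trophectoderm 15 of 21 and 15, and for WNT, BMP and FGF ligands 42 of 50 and 39. Over all TSSs 48.0% were called towards H3K27me3 on library totals and 72.8% towards H3K4me3 with receptor-window scaling. The counts of these lists with receptor-window scaling lay near the second share. Relative to the median of all TSSs the list medians were -1.58, -1.95, -1.465 and -1.70. Gata4, an endoderm and heart factor, had 264.1 and 276.4 CPM of H3K27me3 and 39.2 and 44.5 CPM of H3K4me3, with 20.1 CPM of IgG. Cdx2, a trophectoderm and hindgut factor, had 269.3 and 239.3 against 43.2 and 34.2 CPM, and T (brachyury), the mesoderm factor, 192.6 and 216.2 against 35.8 and 34.8 CPM. H3K27me3 was the higher mark in every library at these 3 genes, with ratios of -2.71 ± 0.12, -2.69 ± 0.12 and -2.51 ± 0.13. These ratios turned to 1.67, 1.67 and 1.84 with receptor-window scaling. Gata6, an endoderm factor in an overlapping window, had a ratio of -2.001 ± 0.13, which became 2.35. Among ligands Wnt9b had the smallest p towards H3K27me3, with 491.9 and 376.8 CPM of that mark and 33.5 and 31.8 CPM of H3K4me3.

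Single members of the endoderm, surface ectoderm and ligand lists had the opposite balance. Fgf4, a growth factor made by stem cells, had 182.6 and 183.4 CPM of H3K4me3 and 13.5 and 10.8 CPM of H3K27me3 (ratio 3.88 ± 0.24), the highest among the 50 ligands. Elf3, an epithelial factor, had a ratio of 4.02 ± 0.25. Hhex, an endoderm factor, had 97.1 and 101.9 against 29.0 and 27.8 CPM and a ratio of 1.79 ± 0.20. Nodal, a signal of the epiblast, had 167.7 and 172.3 CPM of H3K4me3 and a ratio of 4.28 ± 0.26, while Otx2, a factor of the primed state and the forebrain, had one of -3.84 ± 0.16 (0.49 with receptor-window scaling). Of 13 primed epiblast TSSs 4 were called each way on library totals, 5 towards H3K4me3 and 3 towards H3K27me3 with TMM, and 11 towards H3K4me3 with receptor-window scaling. Over all TSSs 37.6% were called towards H3K4me3 and 48.0% towards H3K27me3 on library totals. With TMM it was 10069 and 9805 of 23396, and with receptor-window scaling 72.8% were called towards H3K4me3.

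Neural genes differed among themselves in how much H3K4me3 they held. Of 24 neural progenitor TSSs 13 were called towards H3K27me3 and 3 towards H3K4me3 (19 towards H3K4me3 with receptor-window scaling), and their median relative to that of all TSSs was -0.60, which became 0.09 in windows that overlap no other. Both counts are near the shares of all TSSs, which were 48.0% towards H3K27me3 on library totals and 72.8% towards H3K4me3 with receptor-window scaling. Of 22 forebrain and eye TSSs 21 were called towards H3K27me3, and 20 towards H3K4me3 with receptor-window scaling, with a relative median of -1.59. Of 34 neuronal differentiation TSSs the counts were 30 and 22, with a relative median of -1.90. Th, tyrosine hydroxylase of dopamine neurons, had 5.54 and 7.46 CPM of H3K4me3 and 263.0 and 220.8 CPM of H3K27me3, whereas Stmn2, a stathmin of growing axons, had 70.2 and 71.0 against 7.25 and 17.0 CPM. H3K4me3 had a median of 49.9 CPM for progenitor, 39.6 for forebrain and eye and 23.6 for neuronal genes. Of the 18 ventral neural tube and Hedgehog TSSs, 11 were called towards H3K27me3 and 4 towards H3K4me3 (17 with receptor-window scaling), and their relative median of -0.78 became 0.29 in windows that overlap no other.

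Single neural genes ranged from equality to a strong lean. At Olig2, a factor of motor neuron and oligodendrocyte progenitors (chr16:91223050-91228049), H3K4me3 was 92.2 and 90.9 CPM and H3K27me3 78.7 and 92.7 CPM. The marks overlapped, and the log2 ratio of 0.12 ± 0.15 was not called (adjusted p = 0.429). With 63.7 CPM of IgG, neither mark was called above background. Sox1, an early neural factor, had 51.9 and 55.0 CPM of H3K4me3 and 164.7 and 159.0 CPM of H3K27me3, a ratio of -1.61 ± 0.13 that became -0.88 with TMM and 2.76 with receptor-window scaling. Neurog2, a proneural factor, had 52.5 and 46.9 against 198.8 and 203.8 CPM. Pax6, a factor of eye and forebrain, had 17.1 and 15.7 against 234.1 and 216.2 CPM (ratio -3.77 ± 0.14), and Nkx2-2, a ventral factor in an overlapping window, 20.6 and 12.2 against 182.3 and 162.1 CPM. Neurog2, Pax6 and Nkx2-2 turned to 2.36, 0.60 and 1.03 with receptor-window scaling. Gli2, a Hedgehog effector, and Hes1, a Notch target, lay on the other side with ratios of 4.56 ± 0.26 and 3.38 ± 0.23.

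**Figure D4:**
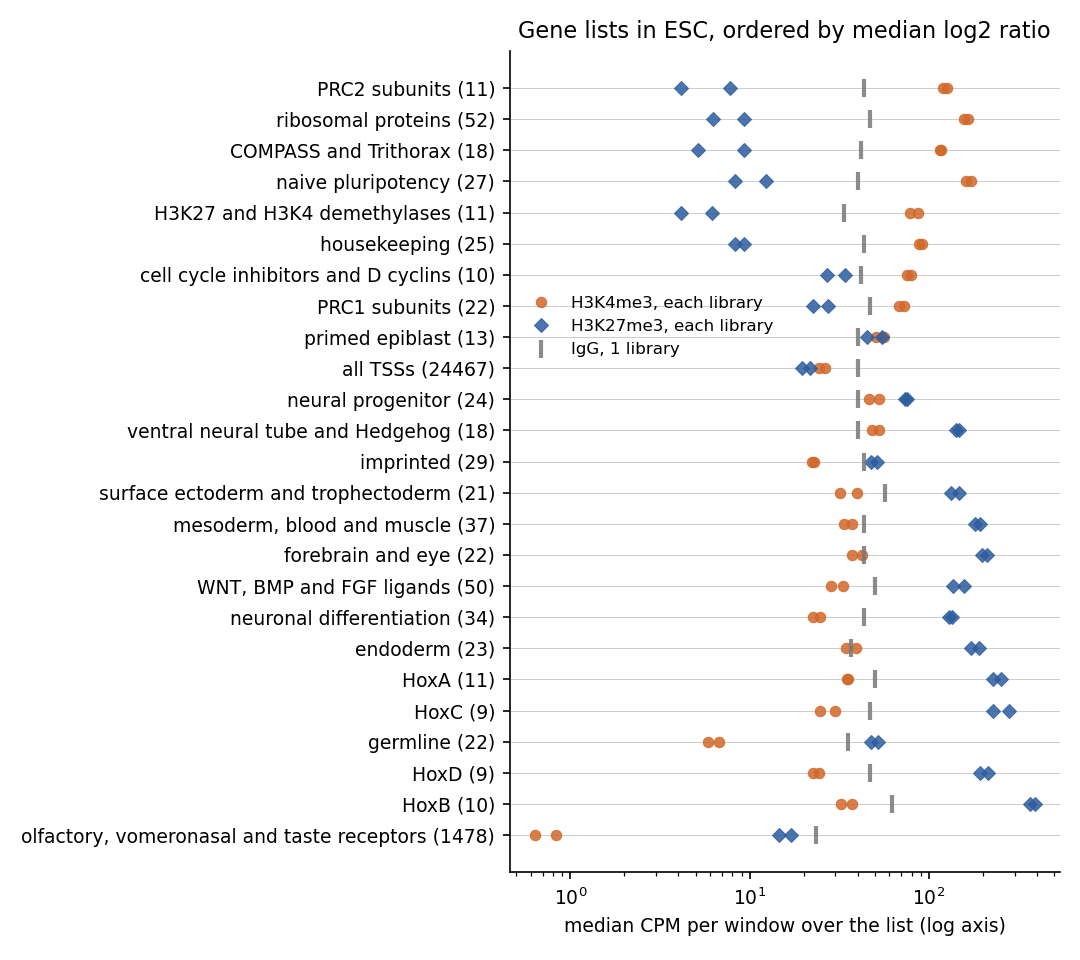
Median CPM per window of H3K4me3 (circles), H3K27me3 (diamonds) and IgG (ticks) over each gene list in ESC, on a log axis, 1 symbol per library, with the number of TSSs in brackets and lists in the order of their median log2 ratio. HoxB has the highest H3K27me3, the receptor genes are low for both marks, and on library totals the order runs from receptors to PRC2 subunits; receptor-window scaling raises every ratio by about 4.36, so that the lists from primed epiblast down to HoxB have a median above 0.

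Germline genes held little H3K4me3. Of 21 germline TSSs tested over IgG, 11 had H3K27me3 alone called, 1 H3K4me3 alone and 9 neither. Over all tested TSSs 20.2% had H3K27me3 alone, 33.7% H3K4me3 alone and 43.8% neither. The median H3K4me3 of the germline genes was 6.38 CPM, against 25.4 CPM for all TSSs. Their median H3K27me3 was 50.2 CPM against 35.2 CPM of IgG. Tdrd1, a Tudor protein of the piRNA pathway, had 2.06 and 6.35 CPM of H3K4me3 and 129.5 and 145.1 CPM of H3K27me3 (ratio -5.21 ± 0.22). Dazl, a germ cell RNA-binding protein, had 23.4 and 20.7 against 30.0 and 30.9 CPM, a ratio of -0.44 ± 0.25 that was not called (adjusted p = 0.0802). Stra8, a gate to meiosis, was the 1 germline TSS called towards H3K4me3 on library totals (12 of 22 with receptor-window scaling), with 71.4 and 73.2 against 22.8 and 29.3 CPM. Of 29 imprinted TSSs 18 were called towards H3K27me3 and 6 towards H3K4me3, against 2 and 22 with receptor-window scaling. The shares of all TSSs were 48.0% and 37.6% on library totals, and 4.15% and 72.8% with receptor-window scaling. At one imprinted locus, Kcnq1, a potassium channel gene, had a ratio of -3.89 ± 0.13 and its antisense transcript Kcnq1ot1 one of 3.09 ± 0.25, in windows that do not overlap. The first turned to 0.48 with receptor-window scaling. Among cell cycle genes Cdkn1a, which encodes the inhibitor p21, had a ratio of 4.65 ± 0.26, Cdkn2a one of 1.49 ± 0.22 in an overlapping window, and Ccnd2, a D cyclin, one of -2.85 ± 0.13 in an overlapping window (1.51 with receptor-window scaling).

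The 5 largest leans to H3K27me3 by the rule for named genes, which asks for at least median abundance and leaves out predicted and receptor genes, were at TSSs with almost no H3K4me3. Otop3, which encodes a proton channel, had 368.7 and 322.7 CPM of H3K27me3 and 3.96 and 1.38 CPM of H3K4me3, a ratio of -6.84 ± 0.17. Krt77, a keratin, had 253.7 and 210.0 against 1.27 and 3.87 CPM, and Tnf, a cytokine, 352.1 and 341.3 against 4.43 and 4.42 CPM. Zic4, a zinc finger factor, and Dlx6os1, an antisense RNA of a homeobox locus, completed the 5, with 223.7 to 250.6 CPM of H3K27me3 and 1.38 to 3.59 CPM of H3K4me3; these last 2 and Tnf lie in overlapping windows, and the counting is not known to use strand. These 5 ratios, from -6.84 to -6.22, stayed called towards H3K27me3 with receptor-window scaling.

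Each mark was also tested against IgG in 1 fit of all 22 libraries (TMM, at least 2-fold above, adjusted p below 0.05), with the single IgG library assumed to vary like the other groups. H3K4me3 was called at 8573 of 23836 TSSs (36.0%) and H3K27me3 at 5358 (22.5%). Both were called at 545 TSSs (2.29%), which are 6.36% of the TSSs with H3K4me3 and 10.2% of those with H3K27me3. This count depended strongly on the setting: it was 63 with library totals, 583 with DESeq2, 1538 in a fit of the 5 ESC libraries, 323 without H3K4me3 replicate 1 and 2264 (9.50%) with receptor-window scaling. Only 207 of the 545 were among the 2264. Of the 4813 TSSs with H3K27me3 alone, 2057 gained the H3K4me3 call under that scaling and kept the other. Esrrb, Cdx2, Gata4, Gata6, T, Pax6, Sox1, Neurog2, Nkx2-2, Hoxa13, Hoxb1 and Hoxd13 went this way.

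The 545 TSSs with both marks had medians of 54.6 and 52.5 CPM of H3K4me3 and 79.7 and 75.7 CPM of H3K27me3. Those with H3K4me3 alone (8028) had 83.2 and 84.2 against 9.32 and 12.4 CPM, and those with H3K27me3 alone (4813) 13.3 and 11.9 against 103.6 and 98.8 CPM. Both levels were thus between those of the single-mark groups, which the calls themselves favour. The IgG median was 30.2 CPM where both were called and 40.2 CPM over all tested TSSs, so a low background count moves with this group.

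The 10 TSSs furthest above IgG in both marks show how much rests on that background. At P2ry1, a purinergic receptor (chr3:61000285-61005284), H3K4me3 was 66.0 and 76.2 CPM, H3K27me3 78.7 and 105.0 CPM and IgG 16.8 CPM from 5 reads. At Prox1, a homeobox factor of lymphatic and neural cells, the values were 69.1 and 68.5, 194.7 and 211.5 and also 16.8 CPM. Every library of both marks was above IgG at both genes. The other 8 had 3 or fewer IgG reads: Asxl3, Colec12, Golim4, Rhobtb1, Slc9a7, Tro, Rab9b and Gpr137b-ps. For Rhobtb1 with 3 reads the pooled fold over IgG was 4.74 (counting interval 1.61 to 23.1) for H3K4me3 and 7.4 (2.47 to 36.4) for H3K27me3. For Tro and Rab9b with 1 read the interval for H3K4me3 reached down to 0.828 and 0.834. At Gpr137b-ps, a pseudogene whose reads can be shared with its parent gene, IgG had 0 reads, so the folds are at least 2.29 and 1.77 against a floor of 3 counts.

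PRC2 itself was read out with antibodies the balance does not use. SUZ12, a core subunit, had medians of 81.6 and 77.7 CPM where both marks were called, 43.1 and 44.4 CPM with H3K27me3 alone, 31.5 and 33.3 CPM with H3K4me3 alone and 23.3 and 24.1 CPM with neither. MTF2 had 99.8 and 83.5, 42.1 and 43.9, 33.65 and 37.59 and 18.03 and 22.97 CPM in the same order. SUZ12 was called above the shared IgG library at 57.6%, 15.5%, 3.15% and 0.392% of these TSSs. The medians of JARID2, the other accessory subunit, differed little between these groups, from 37.7 to 47.8 CPM over both libraries. JARID2 was not flat over single windows: in the 38 with 320 CPM or more of H3K27me3 its medians were 142.2 and 153.4 CPM. The same IgG library defines the groups and the SUZ12 calls and is lower where both marks are called, while the levels in CPM do not use it.

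Among windows rich in H3K27me3, as over all windows, H3K4me3 was higher where SUZ12 was higher. The 1035 windows with at least 160 CPM of H3K27me3 were divided by SUZ12, a description chosen after seeing the data. In the 120 with under 50 CPM of SUZ12, H3K4me3 had medians of 7.99 and 7.59 CPM. In the 292 with 200 CPM or more it had 40.1 and 35.4 CPM, while H3K27me3 itself was 185.4 and 174.5 CPM in the first group and 234.1 and 216.9 CPM in the last. IgG was 53.6 and 50.3 CPM in these 2 groups. JARID2 was 59.1 and 59.5 CPM in the first group and 120.8 and 123.7 CPM in the last. Over the 1035 windows Pearson's r of log2(CPM + 1) between H3K4me3 and SUZ12 was 0.658 (Spearman's rho 0.661), and over all 24467 windows it was 0.547. Over the 1035 it was 0.707 with MTF2, 0.357 with JARID2 and -0.066 with IgG; windows share libraries and are not replicates. Krt77 (42.0 and 55.5 CPM of SUZ12), Otop3 (78.1 and 74.0) and Tnf (73.5 and 57.4) stood at the low end, and Cdx2 (623.8 and 564.5), Sox1 (603.9 and 562.7) and Gata6 (415.1 and 409.1) at the high end. Not all named TSSs went this way. Zic4 had 155.1 and 153.6 CPM of SUZ12 with 3.16 and 1.38 CPM of H3K4me3. Hoxb3 had 257.7 and 220.3 CPM of SUZ12 with 7.12 and 7.18 CPM of H3K4me3.

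On library totals, H3K27me3 in NPC differed along the same division. In 115 of the 120 windows with little SUZ12 in ESC (95.8%), both NPC libraries had less H3K27me3 than both ESC libraries, with NPC medians of 54.9 and 54.2 CPM. In the group with 200 CPM or more 10.3% were lower and 223 of 292 (76.4%) higher in both NPC libraries, with medians of 360.8 and 625.6 CPM. Over all 1035 windows 43.5% were lower and 34.8% higher. The windows were picked for high H3K27me3 in ESC, which by itself favours lower values in NPC. The 2 NPC libraries differed at such sites, replicate 2 having the higher median in 3 of the 4 SUZ12 groups. The shares also moved with the scaling, an alternative added after seeing the data: with TMM 80.8% of the first group were lower in NPC and 70.9% of the last higher, and with receptor-window scaling 55.0% and 82.2%. Over all 1035 windows receptor-window scaling gave 11.6% lower and 44.4% higher, so which direction is the more frequent depends on it. In the group with 50 to 100 CPM of SUZ12, 69.8% were lower and 9.28% higher in NPC on library totals. At Otop3, of that group, H3K27me3 went from 368.7 and 322.7 CPM in ESC to 108.6 and 142.7 CPM in NPC. At Dlx6os1, also of that group, it rose from 250.6 and 233.2 to 351.3 and 619.2 CPM. At Cdx2, in the group with 200 CPM or more, it went from 269.3 and 239.3 to 503.2 and 1003 CPM. At Sox1, of the same group as Cdx2, it fell from 164.7 and 159.0 to 41.0 and 67.5 CPM.

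**Figure D5:**
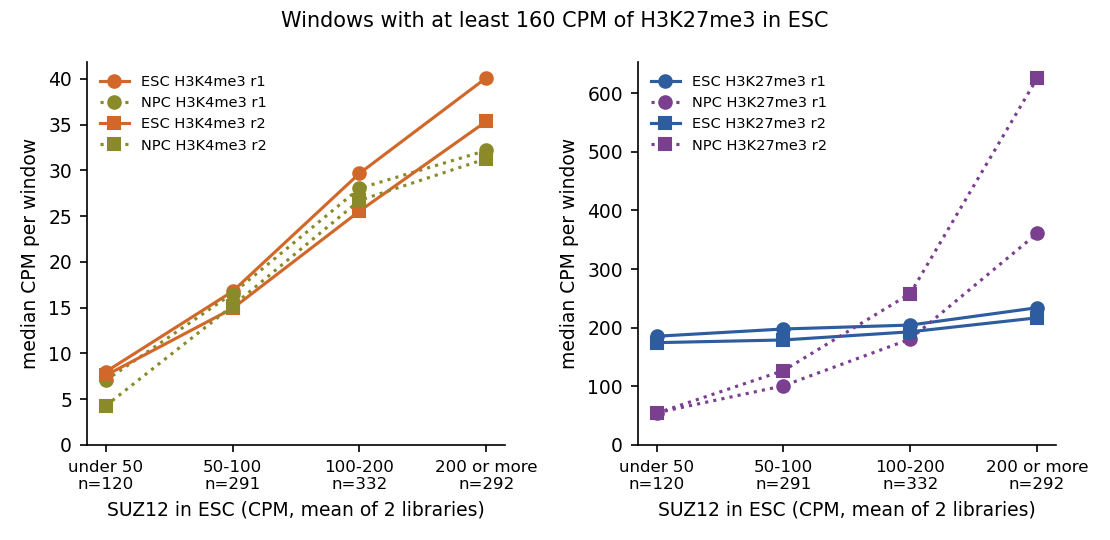
Median CPM per window of H3K4me3 (left) and H3K27me3 (right) in each ESC (solid) and NPC (dotted) library, for the 1035 windows with at least 160 CPM of H3K27me3 in ESC, grouped by SUZ12 in ESC. From the lowest to the highest group, replicate 1 goes from 7.99 to 40.1 CPM for ESC H3K4me3 and from 54.9 to 360.8 CPM for NPC H3K27me3.

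Whether the balance itself was different in NPC was tested as an interaction over 8 libraries (ESC ratio minus NPC ratio, library totals). It was higher in ESC at 4393 of 23958 TSSs (18.3%) and lower at 3619 (15.1%), with a median difference of 0.05. These counts depended on single H3K27me3 libraries: without ESC replicate 1 they were 2211 and 2381, and without NPC replicate 2 the first was 6983. With receptor-window scaling the median difference was 1.16 and only 510 were lower in ESC. Of 27 naive pluripotency TSSs 24 were higher in ESC, with a median difference of 4.48, and of 24 neural progenitor TSSs 17 were lower, with a median difference of -1.97. Of the 545 TSSs with both marks in ESC 69 were higher and 236 lower in ESC.

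The 10 genes named here had the 5 smallest p-values in each direction, with predicted and receptor genes left out. At 9 of them, on library totals, the higher mark in both ESC libraries was the lower one in both NPC libraries. Zyg11a, a substrate receptor of a ubiquitin ligase, had 104.9 and 94.7 CPM of H3K4me3 and 1.04 and 10.8 CPM of H3K27me3 in ESC, and 11.03 and 11.16 against 129.7 and 171.4 CPM in NPC. The difference in log2 ratio was 8.12 (adjusted p = 2.19e-83). Bcl3, an NF-kappa-B cofactor, Icam1, an adhesion molecule, Nphs1os and H2-M5 followed with differences of 9.30, 8.47, 8.24 and 7.69. In the opposite direction, Zeb2, a zinc finger factor of neural and mesenchymal cells, had 5.70 and 5.25 CPM of H3K4me3 and 177.1 and 140.5 CPM of H3K27me3 in ESC, and 108.8 and 132.3 against 34.4 and 50.3 CPM in NPC. Its difference was -6.32 (adjusted p = 1.07e-70), in a window that overlaps another. Frem1, Glra1, Maml2 and Dbn1 followed with -6.23, -5.84, -5.47 and -4.81. With receptor-window scaling the ESC ratios of Frem1, Maml2 and Dbn1 turned to 0.17, 0.55 and 0.70. Which mark was the higher in ESC at Frem1, Maml2 and Dbn1 thus depended on the scaling. At Glra1, a glycine receptor subunit, the marks overlapped in NPC, with 74.75 and 67.77 CPM of H3K4me3 and 62.07 and 71.98 CPM of H3K27me3. Hoxb1 and Esrrb were not called to differ (differences of -0.95 and 0.69, adjusted p = 0.0945 and 0.197).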

How the data were processed

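The series holds 22 CUT&RUN libraries. Values are counts: reads per TSS window, deposited by the authors without normalization. The submitters' processing notes name build mm10 and the tools Bowtie2 (2.3.4.3) and Picard (2.19); read filters, strand use and treatment of duplicates were not given in the sources used here. Of the windows 5370 (21.9%) overlap another, and gene symbols that a spreadsheet had made into dates (27) were looked up again by transcript. Groups and the replicate numbers come from the labels.

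Tests were edgeR 4.0.16 quasi-likelihood fits (R 4.3.3; filterByExpr, minimum count 10), tried on simulated counts. The balance and its difference from NPC used library totals over 4 and 8 libraries, and enrichment over IgG used TMM over 22. SE is the fitted log2 ratio divided by the root of F. Receptor-window scaling sets libraries equal over 1478 receptor windows. Alternatives were other scalings, DESeq2 1.42.0, filters, thresholds, non-overlapping windows, a rule without a model, a replicate block and each library left out. The members and gene lists were chosen with earlier results of these data known. Named genes are 21 landmarks, the called list member with the smallest p in each direction, the 5 largest ratios each way, the 10 TSSs furthest above IgG in both marks and the 5 smallest p-values each way for NPC; predicted and receptor genes were left out of the last 3. Same-numbered libraries did not deviate together (r of 0.041 between the marks in ESC and 0.143 in NPC, and below 0 between the cell types). Intervals and floors cover counting error only, since PCR copies are not independent molecules.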

Additional observations from a re-analysis of the deposited data

Results flagged for a closer look

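The log2 ratio of H3K4me3 to H3K27me3 differed between ESC and NPC by the interaction test (edgeR, adjusted p below 0.05, at least 2-fold) at 66 of the 87 named TSSs, 44 higher and 22 lower in ESC. Over all 23958 TSSs tested, 18.3% were higher and 15.1% lower. The rules that named the TSSs used p-values of this same test and the size of the ESC ratio. The counts for named TSSs therefore follow in part from that choice. The 27 given here are the landmark genes and the genes named for their difference from NPC. The ratio was higher in ESC, by the log2 difference given, at Bcl3 (9.30), Icam1 (8.47), Nphs1os (8.24), Pou5f1 (8.18), Zyg11a (8.12), H2-M5 (7.69), Nanog (6.73), Klf4 (6.11), Ezh2 (3.54), Cdx2 (3.21), Olig2 (3.20), Hoxa13 (3.15), Hoxd13 (2.73), Sox2 (2.59), Gata4 (2.12), Actb (2.04), T (1.92), Gata6 (1.58), Neurog2 (1.54). It was lower in ESC at Zeb2 (-6.32), Frem1 (-6.23), Glra1 (-5.84), Maml2 (-5.47), Dbn1 (-4.81), Nkx2-2 (-2.97), Sox1 (-2.78), Pax6 (-1.003). Pax6 is the least certain of these: its difference was 0.26 with receptor-window scaling and was no longer called with TMM (-0.884), DESeq2 (-0.998) or the replicate block (-1.015). With receptor-window scaling the call was also lost at Nkx2-2 and Sox1. Groups of 2 libraries were too small to look for a single sample that stands apart.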

How the results depend on the processing

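The count of TSSs called towards H3K4me3 was 17039 with receptor-window scaling and 5585 in windows that overlap no other, and the count towards H3K27me3 was 970 with the first. Only 19097 of the 24467 windows overlap no other, and a minimum count of 30 also leaves fewer windows to test. Lower counts in these 2 settings therefore include windows that were removed. H3K4me3 over IgG was called at 3939 TSSs when the log2 threshold was 2, at 4387 with library totals, 5416 at a minimum count of 30, 17404 with receptor-window scaling and 4373 by the rule without a model. H3K27me3 over IgG was called at 2294, 2903 and 2841 TSSs for the threshold of 2, library totals and receptor-window scaling, and at 3120 without a model. Both marks were called at 92 TSSs at a threshold of 2, 1538 with the 5 ESC libraries, 63 with library totals, 195 at a minimum count of 30, 2264 with receptor-window scaling and 147 without a model, and at 323 to 523 with 1 library left out. The balance differed from NPC upwards at 2251 and downwards at 1829 TSSs at a threshold of 2, and downwards at 510 with receptor-window scaling. With 1 library left out these counts ran from 2211 to 6983 and from 2381 to 5061. With receptor-window scaling 29 named ratios turned positive: Ccnd2 1.51, Cdx2 1.67, Dbn1 0.70, Dbx1 0.20, Esrrb 1.16, Frem1 0.17, Gata4 1.67, Gata6 2.35, Hoxa11 0.91, Hoxa13 1.65, Hoxc9 0.26, Hoxd11 0.58, Hoxd13 0.97, Kcnq1 0.48, Lhx2 0.90, Lhx6 0.71, Maml2 0.55, Neurog2 2.36, Neurog3 0.092, Nkx2-2 1.03, Otx2 0.49, Pax6 0.60, Phf19 2.61, Prox1 2.81, Slc9a7 3.13, Sox1 2.76, T 1.84, Tro 3.10, Wnt9b 0.63. The Pax6 difference from NPC turned to 0.26. In windows that overlap no other, 3 list medians moved above that of all TSSs: neural progenitor 0.09, ventral neural tube and Hedgehog 0.29 and imprinted 0.11. The cause was not tested beyond the construction of each scaling.

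With a replicate block the counts were 8809 and 11237 for the balance, 8416 and 5280 over IgG, 486 for both marks and 4342 and 3850 for the difference from NPC; among named genes only the Pax6 difference lost its call. The replicate numbers did not pair the libraries (r of -0.125 and -0.176 between ESC and NPC for the 2 marks). A crossed block, added after seeing the data, gave 4656 and 4186. Depth limits H3K27me3 at active TSSs, where a count of 3 is 3.11 to 4.63 CPM, and every value over the single IgG library.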

Other observations

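Windows on chromosome 11 had higher levels than those of other autosomes in every library, IgG included. The median was 60.3 against 40.2 CPM for IgG in ESC (ratio 1.5) and 59.9 against 41.9 CPM in NPC (1.43). The ratio was 1.73 and 1.80 for H3K4me3 and 1.37 and 1.43 for H3K27me3 in ESC. The median log2 ratio of the marks on chromosome 11 was -0.08, against -0.73 for all TSSs. The HoxB list and, among the genes named, Otop3, Ppia, Wnt9b, Pigl, Ncor1, Pcgf2 and Glra1 lie on this chromosome. The part of its higher level in their CPM, and in the place of HoxB as the list with the most H3K27me3, was not tested. On the X chromosome IgG had a median of 13.4 CPM in ESC, and 3 of the 10 TSSs furthest above IgG in both marks (Tro, Rab9b and Slc9a7) lie there.

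At a lower limit of 100 CPM of H3K27me3, also chosen after seeing the data, 795 windows had under 50 CPM of SUZ12 and 368 had 200 CPM or more. Their median H3K4me3 was 7.35 and 41.1 CPM, and 94.3% and 13.3% had less H3K27me3 in both NPC libraries than in both ESC libraries. In windows that overlap no other the medians were 7.98 and 36.9 CPM.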
